A study of Rattus norvegicus with 10 samples.

Results

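The spliceosome genes of rat tendon-derived stem cells (TDSCs) were examined on day 3 of osteogenic induction, with and without farnesol. TDSCs are progenitor cells of tendon that can be driven towards bone, and farnesol is an isoprenoid alcohol related to the mevalonate pathway. Members were the genes whose pathway annotation in the deposited table names the KEGG Spliceosome map, 130 of 23051 genes. Of these, 123 had at least 10 read counts in 5 or more of the 10 libraries and were tested. The 12 short proteins of the Sm and Lsm rings were set beside the other 111 tested members. The farnesol group was 5 libraries of TDSCs under osteogenic induction with 50 µM farnesol, and the control group was 5 libraries under the same induction without farnesol. Every library therefore carried the induction. By title the control cells received nothing, but a vehicle is implied by the names of their libraries, and what the controls were given in place of farnesol was not analysed here. The labels number the libraries as biological replicates without saying whether they came from separate animals or cultures, and p-values measure the spread between these libraries, which may be technical. The series title concerns farnesol and ossification of tendon, and the comparison asks which transcripts differ when farnesol is present during induction.

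The spliceosome removes introns from pre-messenger RNA. It is assembled anew on each intron from the small nuclear ribonucleoproteins (snRNPs) U1, U2, U4, U5 and U6, each a small nuclear RNA with its proteins, and from many further factors. The Sm proteins form a ring on the U1, U2, U4 and U5 RNAs, and the Lsm proteins form a related ring on U6. SR and hnRNP proteins bind the transcript itself and influence which splice sites are used.

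Depth was 41.8 to 47.1 M counts per library. The levels below are CPM values (counts scaled to the library total) on TMM-scaled library sizes, which do not correct for gene length. A count of 0 allows up to 0.064 to 0.072 CPM, depending on the library, for counting error only. Of the tendon and mesenchymal markers, the summed level was 28506 to 32176 CPM in farnesol libraries and 29927 to 31875 CPM in control libraries over 11 genes, most of it from Col1a1, Col1a2 and Thy1, which did not pass the edgeR test. Of the 10 that were tested, 6 fell (Tnc, Nt5e, Scx, Dcn, Mkx and Cd44, with log2 fold changes of -1.28 to -0.44 and no overlap between the groups) and Eng rose (0.26). Of all tested genes, 29.99% fell and 29.3% rose, and 20.9% had every farnesol library below every control library. Scx, an early tendon factor, averaged 21.4 CPM with farnesol and 35.3 CPM in control, whereas Tnmd, a marker of mature tendon cells, was too low to be tested, at 0.0047 CPM with farnesol and 0.00898 CPM in control. The 4 blood cell markers summed to 2.68 to 3.61 CPM with farnesol and 0.816 to 2.03 CPM in control, with Ptprc at 0 in every library. Cd68, the only blood cell marker that was tested, rose with no overlap, at a log2 fold change of 1.00 (edgeR, adjusted p = 0.00225). The 3 endothelial markers summed to at most 0.316 CPM with farnesol and 0.111 CPM in control, with Cdh5 at 0 in every library. The 3 epithelial markers summed to 1.95 to 3.12 CPM with farnesol and 0.846 to 2.09 CPM in control. Krt8, the only epithelial marker that was tested, rose with overlapping groups, at a log2 fold change of 0.80 (edgeR, adjusted p = 0.00921). The part of these markers in the results was not tested.

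The libraries also differed in how counts were spread over short and long genes. The length slope of a library is the regression slope, on log2 gene length, of its log2 deviation from the 10-library mean, so that a negative value means relatively more counts on short genes. It was -0.0958, -0.0614, -0.0355, -0.0614 and -0.185 in farnesol replicates 1 to 5, and 0.169, 0.102, -0.00186, 0.065 and 0.105 in control replicates 1 to 5. All 5 farnesol libraries lay below all 5 control libraries, with farnesol replicate 5 and control replicate 1 at the ends and both libraries numbered 3 nearest to each other. Since the slopes of the groups did not overlap, farnesol and the length slope cannot be told apart as sources of a difference that follows gene length. Values with the slope taken into account are therefore given beside the main ones.

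With farnesol, 46 spliceosome members rose (37.4%) and 31 fell (25.2%), at a Benjamini-Hochberg adjusted p under 0.05 in edgeR's quasi-likelihood test, and the remaining 46 did not pass. Of all 12942 tested genes, 29.3% rose, 29.99% fell and 59.2% changed either way, so the share of members called in either direction was close to that of the whole table. Every farnesol library lay above every control library for 34 of the 123 tested members (27.6%), against 19.7% of all tested genes. Every farnesol library lay below every control library for 11 of the 123 (8.94%), against 20.9% of all tested genes. The log2 fold changes of the members ran from -1.07 to 0.65. Their median was 0.09, against 0.01 for all tested genes. In bulk RNA, fewer cells of a type and less RNA per cell cannot be told apart.

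Of the 12 Sm and Lsm genes, 9 rose, 0 fell and 3 did not pass, with a median log2 fold change of 0.27 (range -0.05 to 0.53). Of the 111 other members, 37 rose (33.3%) and 31 fell (27.9%), with a median of 0.06. The shares of all tested genes were 29.3% and 29.99%. Leaving out 1 library at a time gave 6 to 10 rises, with 6 when control replicate 1 or control replicate 2 was left out. With the length slope of each library as a covariate, 0 of the 12 passed in either direction. In that fit 1 of all members rose and 2 fell, against 3.00% of all tested genes that rose and 4.54% that fell. With each library's score on the main axis of spread within groups as a covariate, 0 of the 12 passed again. In that fit 8 of all members rose and 4 fell, against 9.11% and 11.98% of all tested genes. The score was taken on deviations from the 10-library mean, so it can carry a difference between the groups. It was 24.1, 11.7, -0.294, 11.8 and 60 in farnesol replicates 1 to 5. In control replicates 1 to 5 it was -40.3, -26.9, 4.29, -17.1 and -27.2. The groups overlapped only through the libraries numbered 3, so a fit with this score may absorb an effect of farnesol.

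All 6 tested Sm genes rose: Snrpb, Snrpd1, Snrpd2, Snrpd3, Snrpe and Snrpf, which encode ring subunits shared by the U1, U2, U4 and U5 snRNPs. Snrpd2 (chromosome 1, 78798377 to 78803351, plus strand, build rn7) had the largest rise among them. Its level was 73.2, 76.5, 72.6, 73.6 and 106 CPM in farnesol replicates 1 to 5, and 51.4, 53.3, 62.6, 54 and 56.1 CPM in control replicates 1 to 5. The groups did not overlap, and farnesol replicate 5 stood well above the other farnesol libraries. The mean was 80.3 ± 14.2 CPM with farnesol and 55.5 ± 4.32 CPM in control (SD, n = 5 each), a log2 fold change of 0.53 ± 0.10 (SE), or 1.45-fold (edgeR, adjusted p = 0.000873).

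Snrpd3 (chromosome 20, 13130119 to 13145978, minus strand, rn7) had 76.5, 70.9, 75.6, 66.9 and 84.6 CPM with farnesol and 54.4, 59.3, 63.8, 56.6 and 60.6 CPM in control. The lowest farnesol library was above the highest control library. The log2 fold change was 0.35 ± 0.07 (edgeR, adjusted p = 0.00112). Snrpe (chromosome 13, 45050986 to 45057310, minus strand, rn7) had 32.1, 32.6, 34, 33.3 and 39.2 CPM with farnesol and 21.8, 27.8, 31.1, 29.2 and 27.3 CPM in control. These groups did not overlap either, although the gap between farnesol replicate 1 and control replicate 3 was narrow. The log2 fold change was 0.32 ± 0.09 (edgeR, adjusted p = 0.00961). Snrpd1 (chromosome 18, 1696852 to 1708256, plus strand, rn7) had 62.3, 67, 64.5, 63.4 and 69.6 CPM with farnesol and 48.2, 54.4, 59.3, 60 and 57.7 CPM in control, again with no overlap (log2 fold change 0.22 ± 0.07; edgeR, adjusted p = 0.0106).

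The remaining Sm genes overlapped between the groups. Snrpb, whose protein is nearly identical to that of Snrpn, so that reads could be split between them, had 95.6, 94, 93.1, 93.2 and 113 CPM with farnesol and 79.4, 82.3, 94.5, 91.3 and 78.5 CPM in control. Its log2 fold change was 0.20 ± 0.07 (edgeR, adjusted p = 0.0309), and the call was lost without control replicate 1, 2 or 5, with an adjusted p of up to 0.082. Snrpf had 40.6, 39.1, 45.1, 43.2 and 45 CPM with farnesol and 30.2, 35.5, 42.5, 37.6 and 37.1 CPM in control. Control replicate 3 lay among the farnesol libraries for both genes. The log2 fold change of Snrpf was 0.22 ± 0.08 (edgeR, adjusted p = 0.0368), and its call was lost without farnesol replicate 3 or 4 or control replicate 1, 2 or 5, with an adjusted p of up to 0.0828. Snrpg, the remaining common Sm gene, lacks the pathway annotation and is no member. Snrpg had 51, 49.4, 50, 51.4 and 57.3 CPM with farnesol and 33.4, 38.7, 46.4, 38.6 and 40.6 CPM in control, with no overlap (log2 fold change 0.39; edgeR, adjusted p = 0.0014). Lsm6 of the U6 ring and Snrpn lack the annotation as well, and neither passed. Lsm6 averaged 0.557 CPM with farnesol and 0.672 CPM in control (log2 fold change -0.27; edgeR, adjusted p = 0.506). It lay close to the count filter, with 15 to 36 counts per library with farnesol and 17 to 42 in control. Snrpn averaged 32.1 CPM with farnesol and 33.7 CPM in control (log2 fold change -0.07; edgeR, adjusted p = 0.429).

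Of the 6 Lsm genes, which encode subunits of the ring on U6 RNA, Lsm2, Lsm3 and Lsm4 rose. Lsm4 had 33.1, 26.6, 26.3, 26.4 and 40.4 CPM with farnesol and 20.9, 21.7, 26.4, 21.2 and 18.3 CPM in control. The overlap came from control replicate 3, whose level was close to those of farnesol replicates 2 to 4. The mean was 30.6 ± 6.2 CPM with farnesol and 21.7 ± 2.95 CPM in control (SD, n = 5 each), and the log2 fold change was 0.50 ± 0.13 (edgeR, adjusted p = 0.00552). Lsm2 had 19.9, 19.7, 19.2, 18.5 and 27.5 CPM with farnesol and 15.6, 13.9, 19.3, 17.3 and 13.7 CPM in control (log2 fold change 0.39 ± 0.12; edgeR, adjusted p = 0.0157). Lsm3 had 32, 30.9, 31.7, 31.8 and 33.9 CPM with farnesol and 23.3, 28.2, 30, 28.6 and 29.9 CPM in control. Only for Lsm3 among these 6 did the groups not overlap. Its log2 fold change was 0.20 ± 0.07 (edgeR, adjusted p = 0.0328), and the call was lost without farnesol replicate 1 or 4 or control replicate 1 or 2, with an adjusted p of up to 0.0653.

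Lsm5, Lsm7 and Lsm8 did not pass. Lsm7 had 19, 18.3, 15.5, 18.3 and 27.5 CPM with farnesol and 13.2, 16.3, 18.4, 14.1 and 16.6 CPM in control (log2 fold change 0.33 ± 0.14; edgeR, adjusted p = 0.0577). It passed without farnesol replicate 3 (adjusted p = 0.0215) or control replicate 3 (adjusted p = 0.0313). Lsm8 had 35.7, 34.1, 35.4, 34.7 and 34.1 CPM with farnesol and 31.1, 37.6, 37.5, 37.7 and 36.4 CPM in control, so that 4 of the 5 control libraries lay above every farnesol library. Its log2 fold change was -0.05 ± 0.06 (adjusted p = 0.502 by edgeR). Lsm5 had 21.2, 16.4, 21.6, 18.6 and 18.1 CPM with farnesol and 16.9, 20.5, 18.6, 19.6 and 20.2 CPM in control, with a log2 fold change of 0.00 ± 0.09 (adjusted p = 0.994 by edgeR). Subunits of the same ring thus had different values, with Lsm4 at the upper end and Lsm8 at the lower end.

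**Figure D1:**
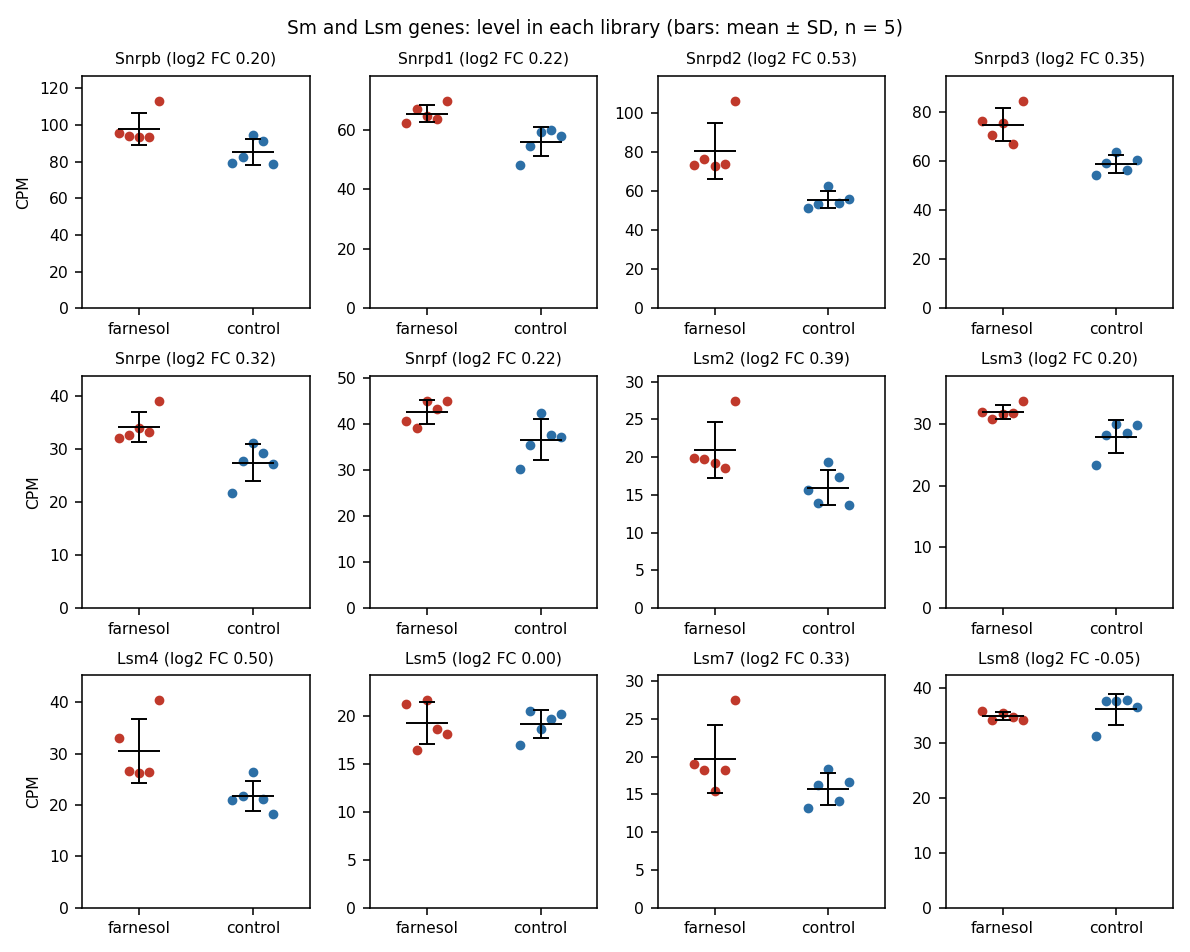
Level of the 12 tested Sm and Lsm genes in CPM (vertical axis) in each of 5 farnesol libraries (red) and 5 control libraries (blue); black bars are the mean ± SD. All 6 Sm genes have the higher mean with farnesol, and farnesol replicate 5 is the highest library for Snrpd2 (106 CPM). The groups overlap for Snrpb, Snrpf, Lsm2, Lsm4, Lsm5, Lsm7 and Lsm8.

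Compared per length, the Sm and Lsm genes lay between 11.8 and 50.5 FPKM with farnesol and between 9.33 and 42.8 FPKM in control. The mean FPKM (fragments per kilobase of gene length, scaled to the library total) was highest for Snrpf, at 50.5 with farnesol and 42.8 in control, followed by Lsm3 at 45.5 with farnesol and 39.2 in control. Snrpd1 followed at 42.1 with farnesol and 35.5 in control, and Snrpe at 41.7 with farnesol and 33 in control. The lowest with farnesol were Lsm7 at 11.8 and Lsm8 at 12, and the lowest in control were Lsm7 at 9.33 and Lsm2 at 11.2. Lsm2 had 14.9 with farnesol, and Lsm8 had 12.2 in control. The summed FPKM of the 12 genes relative to that of the other tested members was 0.0971, 0.0944, 0.096, 0.0952 and 0.113 in farnesol libraries and 0.0763, 0.0839, 0.0937, 0.0859 and 0.084 in control libraries. The farnesol libraries were all higher, but control replicate 3 came close to farnesol replicate 2. On the same per-length scale, the other members summed to 3731 ± 67 FPKM with farnesol and 3566 ± 57.3 FPKM in control (SD, n = 5 each), with every farnesol library (3627 to 3811) above every control library (3464 to 3597). On the CPM scale, which is not corrected for length, their sum was 10036 ± 166 with farnesol and 10147 ± 125 in control (SD, n = 5 each). FPKM gives short genes more weight, and the farnesol libraries had relatively more counts on short genes. The part of this in the FPKM sums was not tested, and no FPKM sum over all tested genes was set beside them.

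The sequence just before the transcription start was read from RefSeq (build GRCr8, the first start listed for each gene), in which 116 of the 130 members were matched. The last 100 bases before the start are shown for the 4 Sm genes whose groups did not overlap, and for Rbm25, the member with the smallest p among those that fell. Capitals mark the core motif of ETS-family transcription factors, CCGGAAG, on either strand (CTTCCGG on the other).
Snrpd1, chr18:1969574-1969673, plus strand: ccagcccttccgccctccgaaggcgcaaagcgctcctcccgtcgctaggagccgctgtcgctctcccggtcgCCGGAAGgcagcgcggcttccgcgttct
Snrpe, chr13:47609252-47609351, minus strand: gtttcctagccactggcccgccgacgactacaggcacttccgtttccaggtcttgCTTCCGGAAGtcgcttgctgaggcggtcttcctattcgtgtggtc
Snrpd2, chr1:87926309-87926408, plus strand: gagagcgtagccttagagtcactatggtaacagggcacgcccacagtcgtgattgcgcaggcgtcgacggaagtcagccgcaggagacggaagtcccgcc
Snrpd3, chr20:13144921-13145020, minus strand: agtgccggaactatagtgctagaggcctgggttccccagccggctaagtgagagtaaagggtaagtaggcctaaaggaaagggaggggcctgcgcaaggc
Rbm25, chr6:109002791-109002890, plus strand: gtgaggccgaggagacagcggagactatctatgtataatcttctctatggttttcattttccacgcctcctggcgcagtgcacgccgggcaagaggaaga

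The ETS core stood in the printed bases of Snrpd1 and, as overlapping matches on both strands, of Snrpe. Within 250 bases before the start it was found for 4 of the 12 Sm and Lsm genes (33.3%), namely Snrpb, Snrpd1, Snrpe and Lsm8, of which Lsm8 did not pass the test. It was found for 28 of the 104 other members with a sequence (26.9%). Among all 10315 tested genes with a sequence the share was 15.1%, and among all 27457 promoters it was 7.74%. The core stood before 14 of the 39 members that rose (35.9%) and 4 of the 25 that fell (16.0%). The GC box GGGCGG, bound by SP1, was present for 58.3% of the Sm and Lsm genes, 39.4% of the other members and 58.4% of all tested genes. The box CCAAT was present for 33.3% of the Sm and Lsm genes, 43.3% of the other members and 35.8% of all tested genes. The TATA box TATAAA was present for 0 of the 12 Sm and Lsm genes, 6.73% of the other members and 6.25% of all tested genes. These are shares of promoters that hold the letters on either strand, and overlaps between different motifs were not removed.

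Gene length separated much of the set. The length used is the one behind the deposited FPKM values, 1488 bp at the median for the 12 Sm and Lsm genes and 2816 bp for the other tested members. Of the 10 members up to 1000 bp, 5 rose and 0 fell. Of the 34 members above that and up to 2000 bp, 20 rose and 4 fell. Of the 49 members above that and up to 4000 bp, 15 rose and 13 fell, and of the 30 longer members 6 rose and 14 fell. All tested genes followed the same order, with 46.5% of those up to 1000 bp rising and 6.01% falling, against 15.5% rising and 48.7% falling above 4000 bp. Across genes, which are not independent replicates, Spearman's rho between length and log2 fold change was -0.39 over the 123 members and -0.38 over all tested genes, but 0.10 within the 12 Sm and Lsm genes.

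Set beside genes of their own length, the Sm and Lsm genes differed by class. The 5 genes up to 1000 bp had a median log2 fold change of 0.22, where all 666 tested genes of that length had 0.36. The 3 genes between 1000 and 2000 bp had a median of 0.33, against 0.25 for all 2540. The 4 genes between 2000 and 4000 bp, Snrpb, Snrpd2, Snrpd3 and Lsm8, had a median of 0.27, against 0.03 for all 5531. After correcting each library by a spline of level on length, 4 of the 12 rose (Snrpb, Snrpd2, Snrpd3 and Lsm4) and 1 fell (Lsm5), where 31.98% of all tested genes rose and 24.4% fell. In that fit Snrpd2 kept a log2 fold change of 0.53 (adjusted p = 0.000678) and Snrpd3 had 0.24 (adjusted p = 0.00265), while Snrpe had 0.06 (adjusted p = 0.423) and Lsm5 had -0.25 (adjusted p = 0.0475), all by edgeR. With the length slope of each library as a covariate, Snrpd2 had 0.07 (adjusted p = 0.798 by edgeR), and with the library axis 0.17 (adjusted p = 0.0617 by edgeR).

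**Figure D2:**
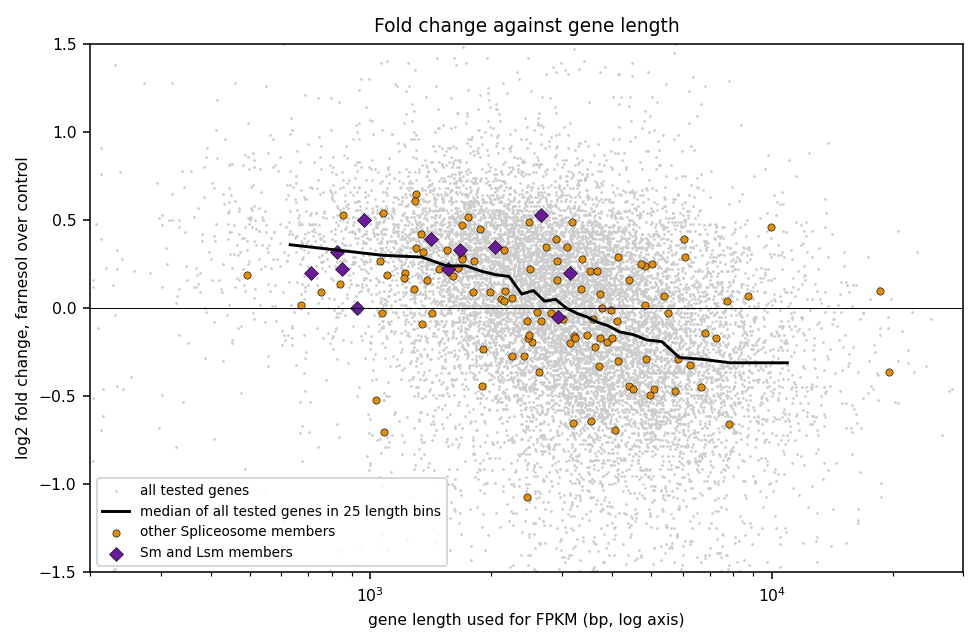
Log2 fold change, farnesol over control (vertical axis), against the gene length used for FPKM in bp (log axis) for all tested genes (grey), the other Spliceosome members (orange) and the Sm and Lsm members (purple diamonds); the black line is the median of all tested genes in 25 length bins, and 263 genes lie outside the axes. The median falls with length, and the Sm and Lsm members lie on both sides of it, for example Lsm3 and Lsm5 below and Snrpd2 and Snrpd3 above.

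Library by library, the Sm and Lsm genes tracked the short genes of the whole table. The median log2 deviation of the 12 genes from the mean of the 10 libraries was 0.11, 0.07, 0.09, 0.06 and 0.33 in farnesol replicates 1 to 5, and -0.31, -0.15, 0.04, -0.06 and -0.11 in control replicates 1 to 5. For all tested genes up to 1000 bp it was 0.19, 0.11, 0.07, 0.12 and 0.43 with farnesol, and -0.34, -0.17, 0.00, -0.12 and -0.20 in control. Farnesol replicate 5 was the highest and control replicate 1 the lowest in both. The other members stayed between 0.01 and 0.03 with farnesol and between -0.04 and 0.00 in control. Without farnesol replicate 5 and control replicate 1, 40 members rose and 26 fell, 6 of the Sm and Lsm genes rose and 0 fell, and the Sm and Lsm median was 0.14.

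**Figure D3:**
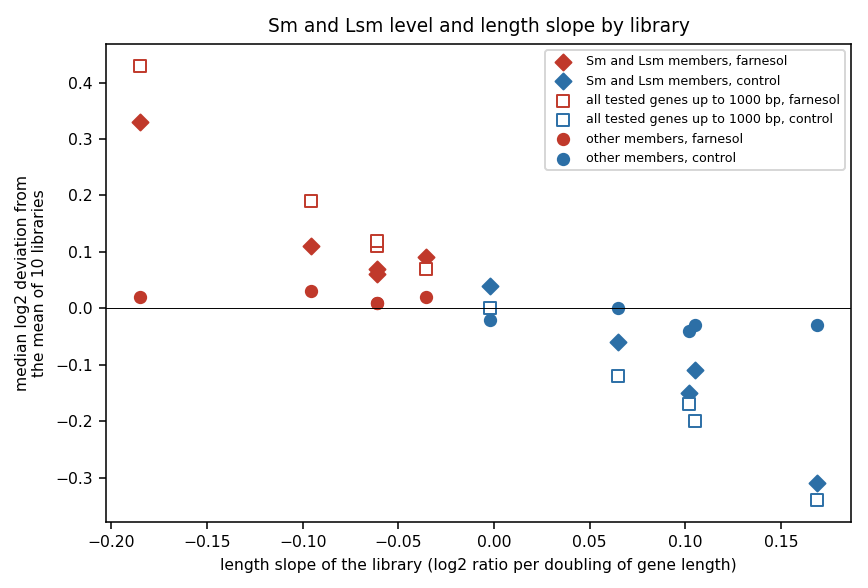
Median log2 deviation from the mean of 10 libraries (vertical axis) against the length slope of each library (log2 ratio per doubling of gene length) for the Sm and Lsm members (diamonds), all tested genes up to 1000 bp (open squares) and the other members (circles), in farnesol (red) and control (blue) libraries. Diamonds and squares both go down as the slope goes up, from farnesol replicate 5 (0.33 and 0.43) at the left to control replicate 1 (-0.31 and -0.34) at the right, while the circles stay near 0.

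The proteins that belong to individual snRNPs changed in both directions. The counts by role from here on are to be read against the 29.3% of all tested genes that rose and the 29.99% that fell. Among 6 tested U1 members, 2 rose (Snrpa and Prpf40b, 33.3%) and 3 fell (50.0%), with Rbm25 among them, while Snrpc did not pass. Snrpa, which binds a stem-loop of U1 RNA, had 18.1, 15.7, 13.2, 15.8 and 20.1 CPM with farnesol and 9.91, 10.8, 12.7, 11.5 and 9.51 CPM in control. The groups came closest at the libraries numbered 3 and did not overlap. The log2 fold change was 0.61 ± 0.12, or 1.52-fold (edgeR, adjusted p = 0.000903). Snrnp70, which encodes another U1-specific protein but lacks the annotation, also rose (log2 fold change 0.28; edgeR, adjusted p = 0.0076).

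Rbm25, an RNA-binding protein that influences splice site choice, was the member with the smallest p among those that fell. It had 51.3, 61.9, 63.8, 54.1 and 45.6 CPM with farnesol and 95.4, 88.8, 72.5, 83.5 and 93.4 CPM in control. Every farnesol library was below every control library, with both libraries numbered 3 nearest to the other group. The mean was 55.4 ± 7.56 CPM with farnesol and 86.7 ± 9.18 CPM in control (SD, n = 5 each), 1.57-fold lower (log2 fold change -0.65 ± 0.10; edgeR, adjusted p = 0.00023). With the library axis as a covariate Rbm25 still fell (log2 fold change -0.29; edgeR, adjusted p = 0.00068), and in the fit with the length slope it had -0.17 (adjusted p = 0.293 by edgeR).

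Prpf40b, which bridges U1 to the branch point end of the intron, averaged 14.7 ± 1.7 CPM with farnesol and 10.6 ± 0.302 CPM in control (SD, n = 5 each), with no overlap (log2 fold change 0.46 ± 0.09; edgeR, adjusted p = 0.000746). At 9969 bp it is among the longer members, so its rise runs against the order by length.

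Of 22 tested U2 members, 11 rose (50.0%, against 29.3% of all tested genes) and 5 fell (22.7%, against 29.99%). Their median log2 fold change was 0.17. Those that rose included U2af2 and U2af1, the subunits of the factor that recognises the end of the intron, Snrpa1 of the U2 particle, and Puf60, Cherp and Phf5a. Also higher were Sf3a1, Sf3a2, Sf3b2, Sf3b4 and Sf3b5, which encode subunits of the complexes that hold U2 on the branch point. Those that fell were U2surp, Dhx15, Sf3b1, Ddx42 and Ddx46, of which Dhx15, Ddx42 and Ddx46 are helicases of the DEAH and DEAD box families. With the length slope as a covariate 0 U2 members passed, and with the library axis 1 rose and 0 fell. After removal of the length trend, 9 rose and 4 fell, with a median of 0.02. Of all tested genes 31.98% rose and 24.4% fell in that fit, with a median of 0.06.

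U2af2 had 145, 145, 137, 146 and 182 CPM with farnesol and 113, 113, 125, 113 and 112 CPM in control. The groups did not overlap, with farnesol replicate 5 and control replicate 3 standing apart within their groups. The log2 fold change was 0.39 ± 0.07 (edgeR, adjusted p = 0.000877), and U2af2 was also called with the library axis as a covariate. Its partner U2af1 rose by a log2 fold change of 0.27 ± 0.08 (edgeR, adjusted p = 0.0085). Sf3b1, the largest subunit of its complex, had 192, 202, 232, 205 and 150.0 CPM with farnesol and 312, 285, 225, 266 and 289.6 CPM in control. Farnesol replicate 3 lay just above control replicate 3, and the other libraries were separate. The log2 fold change was -0.49 ± 0.11 (edgeR, adjusted p = 0.00192), opposite in sign to those of Sf3b2, Sf3b4 and Sf3b5 at 0.21, 0.21 and 0.54. None of these passed in the fit with the length slope, in which Sf3b1 had 0.09, Sf3b4 -0.03 and Sf3b5 -0.14.

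U2surp, a U2-associated protein with an SR-like domain, averaged 30.4 ± 5.12 CPM with farnesol and 47.2 ± 6.16 CPM in control (SD, n = 5 each), with no overlap (log2 fold change -0.64 ± 0.12; edgeR, adjusted p = 0.000978). Dhx15, the helicase that takes spent spliceosomes apart, averaged 115 ± 18 CPM with farnesol and 159.7 ± 12.5 CPM in control (SD, n = 5 each; log2 fold change -0.47 ± 0.10; edgeR, adjusted p = 0.00162). Ddx42 and Ddx46 had smaller differences, with log2 fold changes of -0.32 and -0.22, and their groups overlapped.

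The snRNPs that join later, U4/U6 and U5, also held changes in both directions. Of 10 tested U4/U6 and tri-snRNP members, Snu13, Prpf31 and Sart1 rose, Prpf38b fell and 6 did not pass. Sart1, which joins the tri-snRNP to the rest, had 62.9, 60.3, 54.5, 57.5 and 81.9 CPM with farnesol and 41.2, 45.8, 52.6, 45.6 and 41.3 CPM in control, with no overlap (log2 fold change 0.49 ± 0.11; edgeR, adjusted p = 0.00187). Snu13, with a log2 fold change of 0.17 ± 0.06, lost its call without farnesol replicate 2 or control replicate 1, 2 or 5 (edgeR, adjusted p up to 0.0691). Prpf38b, at -0.17 ± 0.06, lost its call without farnesol replicate 1 or 5 or control replicate 2 or 4 (edgeR, adjusted p up to 0.0988).

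Of the 5 U5 members, Eftud2 and Snrnp40 rose and Prpf8 fell, while Ddx23 and Snrnp200 did not pass. Prpf8, Snrnp200 and Eftud2 form the centre of the U5 particle, as scaffold, helicase and GTPase. Eftud2 averaged 61.7 ± 2.84 CPM with farnesol and 50.4 ± 2.32 CPM in control (SD, n = 5 each), with no overlap (log2 fold change 0.29 ± 0.06; edgeR, adjusted p = 0.000786), and was also called with the library axis as a covariate. Prpf8 averaged 153 ± 5.58 CPM with farnesol and 172 ± 16.3 CPM in control (log2 fold change -0.17 ± 0.06; edgeR, adjusted p = 0.0333). The call of Prpf8 was lost without farnesol replicate 1, 4 or 5 or control replicate 1, 2, 4 or 5 (adjusted p up to 0.0838). Its sign turned with the length trend removed, at 0.14 (edgeR, adjusted p = 0.012). Snrnp200 had a log2 fold change of -0.14 ± 0.07 (adjusted p = 0.0857 by edgeR), was called without control replicate 3 at -0.18 (adjusted p = 0.0256), and turned to 0.16 with the length trend removed (adjusted p = 0.00703). Snrnp40, at 0.23 ± 0.08, lost its call without farnesol replicate 1 or control replicate 1 or 5 (adjusted p up to 0.0548).

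Of the 19 tested members of the Prp19 complex and the factors that join with it, 10 rose (52.6%) and 1 fell (5.26%). Of all tested genes, 29.3% rose and 29.99% fell. The median log2 fold change of the 19 was 0.18 and their median length 2046 bp. Among all tested genes above 1000 and up to 2000 bp, 45.2% rose and 11.4% fell. Above 2000 and up to 4000 bp it was 30.4% and 27.2%. The proteins of the Prp19 group stabilise the spliceosome as it becomes active. Prpf19, the ubiquitin ligase at the centre of the complex, had the smallest p of all members. It had 100.2, 93.5, 89.3, 97.6 and 113 CPM with farnesol and 68.3, 71.8, 75.8, 67.7 and 68 CPM in control. No farnesol library overlapped the controls, and both libraries numbered 3 were nearest to each other. The mean was 98.7 ± 8.88 CPM with farnesol and 70.3 ± 3.47 CPM in control (SD, n = 5 each), 1.4-fold higher (log2 fold change 0.49 ± 0.07; edgeR, adjusted p = 0.000103). With the library axis as a covariate Prpf19 rose by 0.29 (edgeR, adjusted p = 0.000146), with the length slope it had 0.24 (adjusted p = 0.0606 by edgeR), and with the length trend removed it had 0.46.

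The other members of this group that rose were Ppil1, Ctnnbl1, Bcas2, Bud31, Ccdc12, Cwc15, Ppie, Pqbp1 and Xab2, with log2 fold changes of 0.18 for Bud31 to 0.53 for Ccdc12. Ppil1, a prolyl isomerase, averaged 15.4 ± 1.47 CPM with farnesol and 11.1 ± 0.779 CPM in control (SD, n = 5 each), with no overlap, and was also called with the library axis as a covariate. Bud31 lost its call without farnesol replicate 1 or 4 or control replicate 1, 2 or 5 (adjusted p up to 0.0912). Aqr, an RNA helicase, was the member that fell, at 68.3, 72.2, 76.5, 82.6 and 62.3 CPM with farnesol and 99.7, 88.9, 79, 85.2 and 88.2 CPM in control. Its groups overlapped through farnesol replicate 4 and control replicate 3 (log2 fold change -0.29 ± 0.08; edgeR, adjusted p = 0.00814). Cdc5l, a core subunit of the Prp19 complex, averaged 82.1 ± 2.38 CPM with farnesol and 82.9 ± 2.02 CPM in control (SD, n = 5 each) and did not pass. After removal of the length trend, 6 of the 19 rose and 0 fell, against 31.98% and 24.4% of all tested genes in that fit.

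Of the 7 factors of the catalytic steps, Dhx16 rose (14.3%), Slu7 and Ddx5 fell (28.6%), and Cdc40, Dhx38, Dhx8 and Prpf18 did not pass. Dhx16, the helicase that remodels the spliceosome before the first step, averaged 19.1 ± 1.49 CPM with farnesol and 15.7 ± 0.775 CPM in control, with no overlap (log2 fold change 0.28 ± 0.07; edgeR, adjusted p = 0.00515). Slu7, a second-step factor, averaged 40.3 ± 3.6 CPM with farnesol and 48.5 ± 2.93 CPM in control, also with no overlap (log2 fold change -0.27 ± 0.07; edgeR, adjusted p = 0.00601). Ddx5, a helicase with further roles in transcription, had 548, 566, 623, 571 and 425 CPM with farnesol and 725, 689, 611, 691 and 723 CPM in control. Farnesol replicate 3 lay above control replicate 3 (log2 fold change -0.33 ± 0.09; edgeR, adjusted p = 0.00591).

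Of 11 members of the exon junction, export and cap-binding complexes, which mark and carry spliced RNA, 5 rose (45.5%) and 3 fell (27.3%). Ddx39b, an RNA helicase that acts in spliceosome assembly and RNA export, had 102, 99.5, 89.6, 102 and 112 CPM with farnesol and 70.2, 70.1, 79.5, 74.3 and 75.2 CPM in control. The groups did not overlap and were again nearest at the libraries numbered 3. Its log2 fold change was 0.45 ± 0.06 (edgeR, adjusted p = 0.000133), and it was called with the library axis as a covariate. The exon junction subunits Eif4a3 and Rbm8a rose by 0.29 ± 0.06 and 0.22 ± 0.07, while their partners Magoh and Magohb, at 0.02 and 0.09, did not pass. Acin1 rose by 0.24 ± 0.06.

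The THO complex, which packages RNA for export, was divided. Thoc3 rose, at 27.5 ± 3.71 CPM with farnesol and 21.8 ± 1.51 CPM in control, and Thoc1 and Thoc2 fell. Thoc2 had 33.6, 34.3, 41.7, 34.4 and 27 CPM with farnesol and 65.1, 56.8, 37.6, 55.6 and 54.7 CPM in control. The groups overlapped through the libraries numbered 3, and the other control libraries were above every farnesol library (log2 fold change -0.66 ± 0.13; edgeR, adjusted p = 0.00131). Thoc1, at -0.20 ± 0.07, lost its call without farnesol replicate 1 or control replicate 1, 2 or 4 (adjusted p up to 0.0726). Ncbp2, the small cap-binding subunit, at -0.19 ± 0.08, lost its call without farnesol replicate 1 or 5 or control replicate 1, 2, 4 or 5 (adjusted p up to 0.0988). In the fit with the length slope, Thoc1 had 0.08, Thoc2 had 0.05 and Ncbp2 had 0.13, and none passed.

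**Figure D4:**
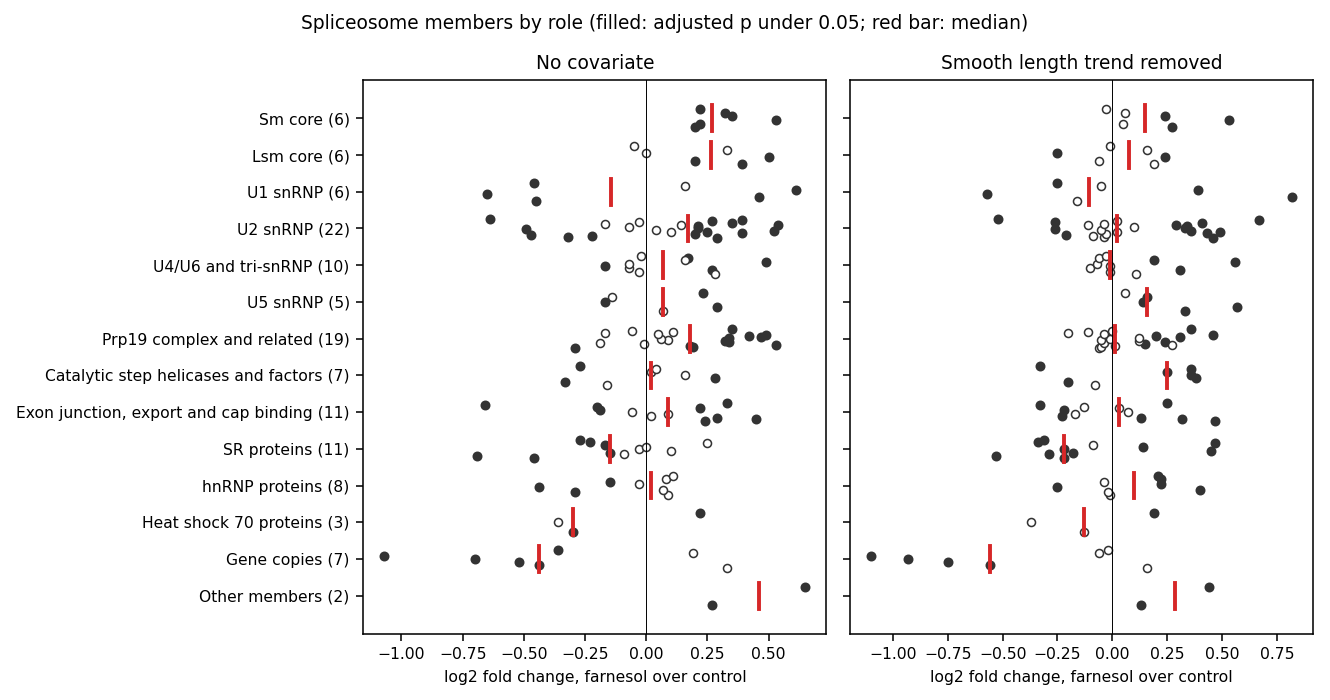
Log2 fold change, farnesol over control (horizontal axes), of each tested member by role (vertical axis, with the number tested) without a covariate (left) and after each library was corrected by a spline of length (right); filled points passed an adjusted p of 0.05, and red bars are medians. All 6 Sm genes are filled and above 0 on the left, where no SR or hnRNP protein has a filled point above 0. On the right 3 of the Sm genes are filled, 3 SR proteins rise while 7 fall, and 4 hnRNP proteins rise while 1 falls. Among all tested genes, 29.3% rose and 29.99% fell in the left fit, and 31.98% and 24.4% in the right fit.

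Of the 11 tested SR proteins, 0 rose and 6 fell (54.5%): Srsf1, Srsf3, Srsf7, Srsf10, Tra2a and Tra2b. Of all tested genes, 29.3% rose and 29.99% fell. SR proteins bind exons and favour the use of nearby splice sites. Srsf10 had 2.8, 2.98, 3.69, 3.52 and 2.57 CPM with farnesol and 5.72, 5.09, 4.42, 4.69 and 5.26 CPM in control. It was the SR protein whose groups did not overlap. Its log2 fold change was -0.69 ± 0.13 (edgeR, adjusted p = 0.000751).

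Srsf1, the founding member of the family, had 125, 137, 159, 136 and 105 CPM with farnesol and 196, 182, 153, 187 and 190.2 CPM in control. The overlap was between farnesol replicate 3 and control replicate 3 only (log2 fold change -0.46 ± 0.10; edgeR, adjusted p = 0.00173). Tra2b averaged 91.6 ± 10.9 CPM with farnesol and 111 ± 5.25 CPM in control (SD, n = 5 each; log2 fold change -0.27 ± 0.08; edgeR, adjusted p = 0.00872). The calls of Srsf3, Srsf7 and Tra2a were lost without control replicate 4. Those of Srsf7 and Tra2a were also lost without farnesol replicate 1 or 4 or control replicate 2 or 5, and that of Tra2a without control replicate 1 (adjusted p up to 0.0858). Srsf2, Srsf4, Srsf5, Srsf6 and Srsf9 did not pass, with log2 fold changes of -0.09, 0.10, -0.03, -0.00 and 0.25. The median length of the SR proteins was 3233 bp. After removal of the length trend, 3 rose and 7 fell, against 31.98% and 24.4% of all tested genes, and with the slope or axis covariate 0 passed in either direction.

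Of the 8 hnRNP proteins, which coat nascent RNA and often oppose SR proteins, 0 rose and Hnrnpk, Hnrnpa3 and Hnrnpu fell (37.5%). Of all tested genes, 29.3% rose and 29.99% fell. The median length of the hnRNP proteins was 4066 bp. After removal of the length trend, 4 of them rose (Hnrnpc, Hnrnpm, Pcbp1 and Rbmx) and 1 fell (Hnrnpk). In that fit 31.98% of all tested genes rose and 24.4% fell. Hnrnpk had 302, 317, 352, 324 and 237 CPM with farnesol and 443, 421, 371, 424 and 418 CPM in control. The groups did not overlap, and farnesol replicate 5 was the lowest library (log2 fold change -0.44 ± 0.09; edgeR, adjusted p = 0.00128). Hnrnpa3 averaged 290.2 ± 30.5 CPM with farnesol and 354 ± 14.2 CPM in control (SD, n = 5 each; log2 fold change -0.29 ± 0.07; edgeR, adjusted p = 0.00349). Hnrnpu, at -0.15 ± 0.05, lost its call without farnesol replicate 4 or control replicate 2 or 4 (edgeR, adjusted p up to 0.0636).

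Without a correction for length, Hnrnpa1, Hnrnpc, Hnrnpm, Pcbp1 and Rbmx did not pass. Hnrnpa1 averaged 309 ± 15 CPM with farnesol and 289.8 ± 5.28 CPM in control (log2 fold change 0.09 ± 0.05; adjusted p = 0.0967 by edgeR). It rose without farnesol replicate 5, at 0.13 (edgeR, adjusted p = 0.00992), and with the library axis as a covariate, at 0.16 (edgeR, adjusted p = 0.00812). Rbmx had 0.11 (adjusted p = 0.218 by edgeR) and was the 1 member that rose with the length slope as a covariate, at 0.38 (edgeR, adjusted p = 0.0368), against 3.00% of all tested genes that rose in that fit.

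**Figure D5:**
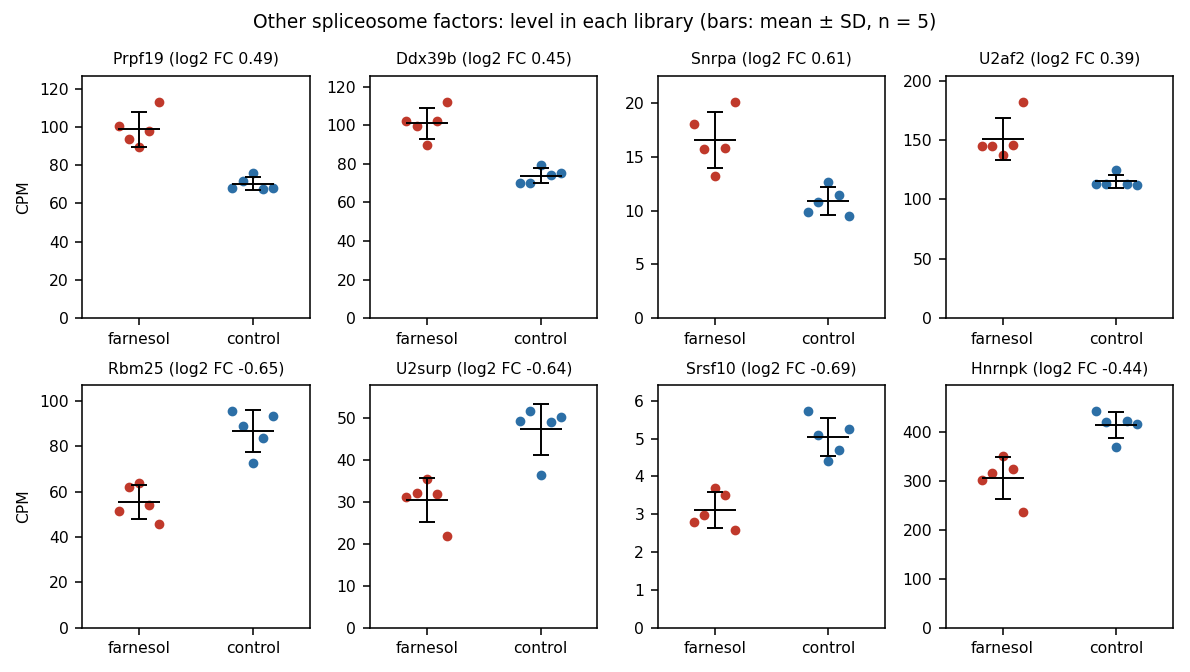
Level in CPM (vertical axis) of 4 members that rose (Prpf19, Ddx39b, Snrpa and U2af2) and 4 that fell (Rbm25, U2surp, Srsf10 and Hnrnpk) in each of 5 farnesol libraries (red) and 5 control libraries (blue); black bars are the mean ± SD. In all 8 panels the groups do not overlap, for example 89.3 to 113 CPM with farnesol against 67.7 to 75.8 CPM in control for Prpf19.

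The map also holds heat shock 70 chaperones. Hspa8, the constitutive form, had 1973, 1869, 1891, 1918 and 2049.5 CPM with farnesol and 1537, 1653, 1788, 1695 and 1678 CPM in control. There was no overlap (log2 fold change 0.22 ± 0.05; edgeR, adjusted p = 0.00288). Hspa1a, a stress-inducible form, averaged 18.4 ± 1.99 CPM with farnesol and 22.7 ± 2.86 CPM in control (SD, n = 5 each; log2 fold change -0.30 ± 0.10; edgeR, adjusted p = 0.0199). Its call was lost without farnesol replicate 2 or control replicate 4 (adjusted p up to 0.0593). It was one of the 2 members that fell with the length slope as a covariate, at -0.72 (edgeR, adjusted p = 0.000112), and it had -0.59 with the library axis (edgeR, adjusted p = 1.64e-05). Hspa1l, at 1.91 ± 0.28 CPM with farnesol and 2.46 ± 0.359 CPM in control, did not pass. Hspa1b was not analysed here, and reads of such close copies could be split between them.

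Outside these groups, Rp9 averaged 7.88 ± 0.803 CPM with farnesol and 5.02 ± 0.808 CPM in control (log2 fold change 0.65 ± 0.12; edgeR, adjusted p = 0.000767).

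The remaining 13 members are gene copies that share a KEGG orthology number with another member or are named after one. Of the 7 that were tested, 5 fell (71.4%) and 0 rose, against 29.99% and 29.3% of all tested genes. Counts of all the gene copies are uncertain, since reads may be shared with the parent gene. LOC120096281 and LOC100911361 carry the orthology number of Hnrnpa1 and Hnrnpa3. LOC120096281 averaged 13.4 ± 2.58 CPM with farnesol and 21.7 ± 2.02 CPM in control (SD, n = 5 each; log2 fold change -0.70; edgeR, adjusted p = 0.000625). LOC100911361 averaged 14.9 ± 3.09 CPM with farnesol and 21.4 ± 2.05 CPM in control (SD, n = 5 each; log2 fold change -0.52; edgeR, adjusted p = 0.00453). Neither overlapped between groups. Both are near 1000 bp long, so that their falls run against the order by length. LOC100359916, with the orthology number of Hnrnpk, fell with the length slope as a covariate too, at -0.88 (edgeR, adjusted p = 0.0229), against -0.44 without it (adjusted p = 0.0176), and lost its call without control replicate 4 (adjusted p = 0.0555). Thoc2l had a log2 fold change of -0.36 ± 0.09 (edgeR, adjusted p = 0.00344).

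Rbm25l1, which shares the orthology number of Rbm25, was the only member to change by at least 2-fold, and it lay close to the count filter. Its counts were 28, 30, 46, 19 and 16 with farnesol and 89, 53, 22, 46 and 79 in control. Control replicate 3 was below farnesol replicates 1 to 3 (log2 fold change -1.07 ± 0.36; edgeR, adjusted p = 0.0201), and the call was lost without control replicate 1 or 5 (adjusted p up to 0.0635). Just inside the filter was also Snrpgl1, with 36 to 61 counts with farnesol and 31 to 62 in control, which did not pass the test. Outside it, U2af1l4, Snrpepl2 and Lsm5l1 had at most 5, 7 and 6 counts in any library. Snu13l1, Da2-19, LOC120100604 and LOC100910341 were at 0 counts in every library, so with U2af1l4 as the exception all 7 untested members were gene copies.

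Genes that act beside the spliceosome but are not in the map were counted from lists of their own, to be read against the 29.3% of all tested genes that rose and the 29.99% that fell. Of 13 genes of the SMN complex and of Sm ring assembly, which load Sm proteins onto snRNA, 6 rose (Gemin7, Gemin8, Smn1, Prmt5, Clns1a and Phax) and 1 fell (Wdr77), with a median log2 fold change of 0.15. The largest of these were Gemin7 at 0.63 (edgeR, adjusted p = 0.00165) and Gemin8 at 0.41. Of 9 genes of the minor spliceosome, which removes a rare class of introns, 5 rose (Scnm1, Snrnp25, Snrnp35, Zcrb1 and Zmat5) and 1 fell (Rnpc3), with a median of 0.28. Scnm1 rose by 0.58 (edgeR, adjusted p = 0.000719) and Snrnp25 by 0.54 (edgeR, adjusted p = 0.00171). With the length slope as a covariate 0 of the genes of either list passed.

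Of 5 tested kinases of SR proteins, 0 rose and Clk4 (-0.42; edgeR, adjusted p = 0.00163) and Srpk2 (-0.28; edgeR, adjusted p = 0.0248) fell, and the call of Srpk2 was lost without farnesol replicate 1 or control replicate 1 or 2 (adjusted p up to 0.0643). Of 6 Lsm-domain genes outside the U6 ring, Lsm12 (0.51; edgeR, adjusted p = 0.00077) and Lsm10 rose and Lsm11 (-0.54; edgeR, adjusted p = 0.000427) and Lsm14a fell. Lsm10 and Lsm11 both belong to the U7 particle, which processes histone transcripts. Of 6 genes of RNA decay, 5 fell (Dcp1a, Dcp2, Xrn1, Xrn2 and Smg1), with a median of -0.48 at a median length of 4854 bp, where 48.7% of all tested genes above 4000 bp fell. Among them were Xrn2 at -0.43 (edgeR, adjusted p = 0.00156) and Dcp1a at -0.36 (edgeR, adjusted p = 0.0013). After removal of the length trend, 4 of the 6 decay genes fell and 1 rose, with a median of -0.29. In that fit 24.4% of all tested genes fell and 31.98% rose, with a median of 0.06. None of these 3 lists had a gene that passed with the length slope as a covariate. Of 13 further tested splicing genes that lack the annotation, Snrpg, Snrnp70, Dnajc8 and Alyref rose and Luc7l2, Luc7l3 and Cwc22 fell.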

How the data were processed

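Trizol served for the extraction of total RNA and a NEBNext Ultra II kit for library preparation, per the labels. Build rn7 and the tools StringTie, DESeq, HTSeq 0.9.1 and HISAT2 2.0.5 are listed in the submitters' processing notes. The authors deposited read counts and FPKM values per gene and library, per the file headers. The strand setting of the counting is not given, so overlapping and antisense genes cannot be told apart. Of 23052 rows, 1 repeated row was removed; all 10 libraries had their own columns. Gene length was taken from the ratio of count to FPKM, which was constant over libraries (largest relative spread 5.68e-15).

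Counts with at least 10 in 5 or more libraries (12942 genes) were tested in R 4.3.3 with edgeR 4.0.16 (TMM, robust quasi-likelihood fit, farnesol over control) and Benjamini-Hochberg adjustment over all of them at 0.05. CPM values use TMM-scaled library sizes. SE values were derived from the fold change and the F statistic of its test.

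The members and lists were chosen with earlier results of these data known, and gene copies were placed by orthology number. Genes were named by rule: every tested Sm and Lsm member, up to 12 members each of the smallest p that rose and fell with no overlap of groups (11 fell so), 12 fixed members, and up to 2 genes per further list. Snrpg, Rbmx, Hspa1a, LOC100359916, Rbm25l1 and most of the other called members, and the remaining called genes of the further lists, were named after their values were seen. A few members, including some that the rule names, are not reported by name.

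Alternatives were DESeq2 size factors, upper-quartile scaling, no filter (at least 1 count in any library), filterByExpr, DESeq2 1.42.0, limma-voom and limma-trend (limma 3.58.1) on log2(FPKM + 0.1), the replicate number as a block, each library left out, the length slope or the library axis (the first principal component of log2 CPM, prior count 2, within groups) as a covariate, and a spline of log2 length (5 degrees of freedom) removed from each library. Leaving out the libraries at both ends of the length slope, and counting Snrpgl1 with Sm and Lsm, were added after seeing the data. Steps were tested on simulated data. Replicate libraries differed beyond sampling noise (chi-square per gene 3.95 to 113), so none were merged as copies; this does not show that they are independent cultures.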

Additional observations from a re-analysis of the deposited data

Results flagged for a closer look

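Among 184 groups of 5 libraries (92 named genes), 20 values stood apart from the rest of their group by Dixon's criterion at the 95% level, a level at which chance gives about 1 in 20 groups. Of these, 15 were in farnesol replicate 5. It was the highest farnesol library for Snrpd2 (106 CPM), Snrpb (113 CPM), Snrpe (39.2 CPM), Snrpg (57.3 CPM), Lsm2 (27.5 CPM), Rp9 (9.26 CPM), U2af2 (182 CPM) and Snrnp70 (233 CPM), and likewise for Ccdc12 (24 CPM), Sf3a2 (55.6 CPM) and Sf3b5 (64.2 CPM). The same library was the lowest for Lsm11 (8.31 CPM), Ddx42 (46.6 CPM), Ncbp2 (51.3 CPM) and Tra2a (67 CPM). Farnesol replicate 5 also had the lowest length slope, at -0.185.

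Control replicate 1 was the lowest control library for Lsm3 (23.3 CPM) and Lsm8 (31.1 CPM), and had the highest length slope, at 0.169. Control replicate 3 was the highest control library for U2af2 (125 CPM) and Snrnp70 (177 CPM) and the lowest for U2surp (36.4 CPM). In each of these it was the control library nearest to the farnesol group, and it had the lowest length slope of the controls, at -0.00186.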

How the results depend on the processing

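DESeq2 size factors, no filter, filterByExpr, DESeq2 and limma-voom left the counts of members within 1.5 times. The median of the other members was 0.08 with upper-quartile scaling and with limma-trend on FPKM. With 1 library left out, members that rose numbered 40 to 49 and those that fell 21 to 34, Sm and Lsm rises 6 to 10, all tested genes that rose 3355 to 3906 and that fell 3500 to 3988, and the medians were 0.21 to 0.32 for Sm and Lsm and 0.05 to 0.08 for the other members. Without farnesol replicate 5 and control replicate 1 the medians were 0.14 and 0.04. Replicate numbers did not pair the libraries (correlations of deviations -0.389 to 0.0494, none best with its own number); with the replicate block, 38 members rose and 22 fell, 7 of them Sm and Lsm rises, and 18 of 92 named genes lost their call, such as Snrpb (adjusted p = 0.0879, edgeR) and Lsm3 (adjusted p = 0.0674, edgeR).

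The length covariates changed most. With the length slope, 1 member rose and 2 fell, 0 Sm and Lsm genes rose, 388 and 587 of all tested genes rose and fell, and the medians were -0.06 for Sm and Lsm and 0.03 for the others. With the library axis, 8 members rose and 4 fell, 0 Sm and Lsm genes rose, 1179 and 1551 of all tested genes rose and fell, and the medians were 0.05 and 0.03. With the smooth length trend removed, 46 members rose and 24 fell (31 and 19 of them called the same way without it, and Prpf8 the opposite way). In that fit 4 Sm and Lsm genes rose and 1 fell. The medians were 0.11 and -0.01, against 0.06 for all tested genes.

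Among named genes called with or without the covariate, signs that turned with the length slope, as log2 fold changes, were Lsm2 -0.14, Lsm3 -0.03, Lsm4 -0.09, Snrpb -0.12, Snrpe -0.07, Snrpf -0.06, Snrnp70 -0.05, Snu13 -0.00, Sart1 -0.04, Rbm8a -0.01, Thoc3 -0.05, Bud31 -0.09, Ccdc12 -0.28, Xab2 -0.08, Phf5a -0.03, Puf60 -0.02, Sf3a2 -0.23, Sf3b4 -0.03 and Sf3b5 -0.14, and, upwards, Dhx15 0.01, Slu7 0.01, Prpf8 0.10, Sf3b1 0.09, Srsf1 0.02, Srpk2 0.15, Xrn2 0.01, Ddx46 0.08, Ddx42 0.15, Aqr 0.08, Ddx5 0.08, Ncbp2 0.13, Thoc1 0.08, Thoc2 0.05, Rbm25l1 0.68, Thoc2l 0.07 and Tra2a 0.10. With the library axis they were Lsm2 -0.02, Snrpb -0.04, Ccdc12 -0.06, Sf3a2 -0.06, Prpf8 0.00, Srpk2 0.05, Ddx42 0.04, Ncbp2 0.05, Thoc1 0.02, Rbm25l1 0.18 and Tra2a 0.05. With the length trend removed they were Lsm3 -0.06, Lsm5 -0.25, Snrpf -0.03, Snu13 -0.06, Bcas2 -0.05, Phf5a -0.03, Prpf8 0.14 and Snrnp200 0.16. Of genes called in neither fit, Lsm7 turned to -0.33 (slope) and -0.18 (axis), Snrnp200 to 0.15 (slope) and 0.04 (axis), and Hnrnpa1 to -0.01 (trend). The cause was not tested. The slope runs with the groups, and the axis score does so except for the libraries numbered 3. A fit with either may absorb an effect of farnesol.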
